A study of Homo sapiens with 8 samples.

Results

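The enzymes that build fatty acids from acetyl-CoA, lengthen them and introduce double bonds were examined as 10 named genes, ACLY, ACSS2, ACACA, FASN, SCD, ELOVL1, ELOVL5, ELOVL6, FADS1 and FADS2. The 10 genes were taken by symbol from the 61806 genes of the deposited table, each matched 1 row, and all 10 had enough reads to be tested. mRNA was sequenced from 8 cultures of wild-type N/TERT-1 cells, an immortalized line of human keratinocytes kept in keratinocyte serum-free medium with EGF and bovine pituitary extract. In 4 cultures the cells received ethanol, the solvent, and in 4 they received O/A, which is 10 µM oligomycin with 4 µM antimycin A, for 4 hours. Oligomycin inhibits the mitochondrial ATP synthase and antimycin A inhibits complex III, so that together they depolarize mitochondria. Dose and duration are not in the labels of the samples and were taken from the study's description of its O/A treatment and of this experiment. Both agents were given together, so their effects cannot be told apart, and the data come from a single cell line at a single time point.

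Cytosolic acetyl-CoA is made from citrate by ACLY or from acetate by ACSS2. The carboxylase ACACA turns it into malonyl-CoA, and FASN, a multifunctional synthase, joins these units into palmitate. Enzymes of the ELOVL family lengthen fatty acids at the endoplasmic reticulum, where SCD makes monounsaturated fatty acids and FADS1 and FADS2 act on polyunsaturated ones. Many of these genes are known targets of the SREBP transcription factors, which bind sterol regulatory elements beside NF-Y (at CCAAT boxes) and Sp1 (at GC boxes), and in epidermis their products feed the lipids of the skin barrier.

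O/A did not shift the 10 genes in one direction. ACSS2 was upregulated to 1.52-fold of its ethanol level, ELOVL6 fell to 0.782-fold and ACLY fell to 0.814-fold. FASN, SCD (except under quantile normalization) and ELOVL1 were lower and ELOVL5, FADS1 and FADS2 higher by amounts within the fold change threshold of the study, and ACACA did not pass the test. A gene was called upregulated or downregulated when the Benjamini-Hochberg adjusted p-value of edgeR's quasi-likelihood test was at most 0.05 and the absolute log2(FC) was above 0.25. By this rule 1 of the 10 genes was upregulated and 2 were downregulated, against 15.8% and 18.9% of the 14893 genes tested. With the adjusted p-value alone 9 of 10 passed, 4 higher and 5 lower in O/A, against 26% and 27.7% of all genes tested, but SCD, ELOVL1 and FADS2 did so only in part of the alternative analyses. None of the 10 passed at an absolute log2(FC) above 1 by edgeR, where 5.35% of all genes did, and 9 had an unadjusted p under 0.05. Of all genes tested 34.7% passed both thresholds in either direction and 53.7% the adjusted p-value alone. The median log2(FC) of the 10 genes was -0.026 and that of all genes tested -0.00040. In bulk samples such as these, a lower level can reflect fewer cells that make a transcript or less of it per cell, and these cannot be told apart.

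**Figure D1:**
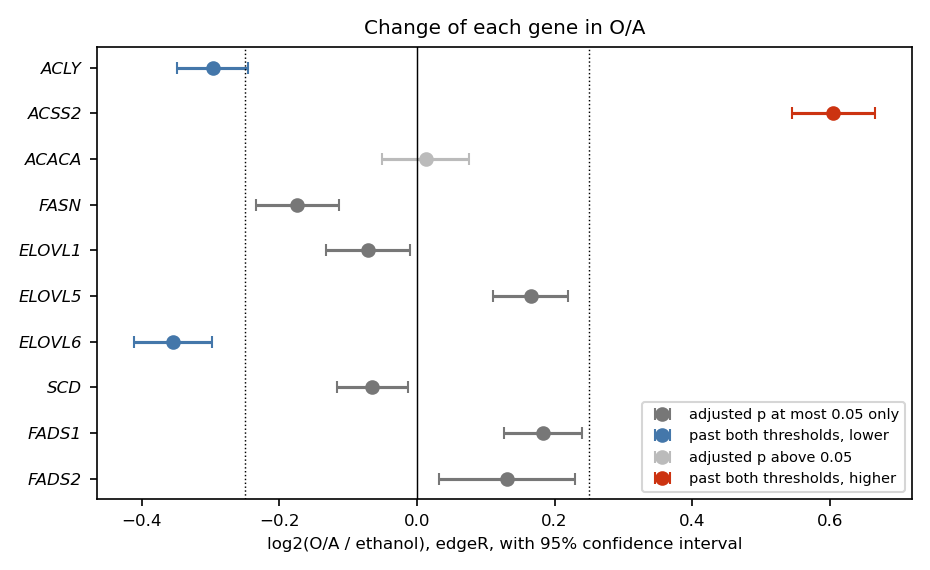
Log2(FC) of each of the 10 genes in O/A against ethanol from edgeR's quasi-likelihood test, with bars for the 95% confidence interval and dotted lines at the threshold of 0.25 on either side of 0. ACSS2 lies alone beyond the upper line at 0.61, ACLY (-0.30) and ELOVL6 (-0.35) lie beyond the lower line, and the other 7 lie between the lines.

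Each library held 17210404 to 20999927 counted reads, and no 2 libraries of a condition were as alike as repeated sampling of the same counts would be. The labelled cell type was checked against 6 keratinocyte markers, all of which were expressed, with a summed level of 2765 to 3028 FPKM in ethanol and 2437 to 2594 in O/A. Of these KRT5 was downregulated (log2(FC) -0.30) and DSG3 upregulated (0.99). The summed level of 6 fibroblast markers was 2.42 to 2.95 FPKM in ethanol and 2.45 to 2.69 in O/A, and apart from COL1A1 none of them exceeded 6 counts in any library. For 6 melanocyte markers it was 1.37 to 1.81 and 1.26 to 1.71 FPKM. Of these MITF held 128 to 168 and PMEL 17 to 45 counts per library, with MLANA and TYR at 0 throughout. For 6 sebocyte markers it was 13.1 to 14.1 and 13.3 to 14.3 FPKM, with SOAT1 at 1615 to 1857 counts per library and AWAT1 and DGAT2L6 at 0 throughout. For 5 leukocyte markers it was 0.66 to 0.97 and 0.87 to 1.19 FPKM, and CD68, at 15 to 33 counts per library, was the only gene of these 4 lists that was called, upward. The part of the shift in keratinocyte markers in the results below was not tested.

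The 300 bases around the RefSeq start of each gene (250 before and 50 after it, GRCh38.p14) were searched for motifs linked to lipogenic and stress transcription, and 9 of the 10 genes had such a window, FASN being the exception. The windows of the 3 genes past both thresholds are shown because they carry the largest differences, 5′ to 3′ along the gene, with matches to CCAAT (or ATTGG) and GGGCGG (or CCGCCC) in capitals. They are ACSS2 at chr20:34874739-34875038 on the plus strand, ACLY at chr17:41918973-41919272 on the minus strand and ELOVL6 at chr4:110198566-110198865 on the minus strand.
ACSS2: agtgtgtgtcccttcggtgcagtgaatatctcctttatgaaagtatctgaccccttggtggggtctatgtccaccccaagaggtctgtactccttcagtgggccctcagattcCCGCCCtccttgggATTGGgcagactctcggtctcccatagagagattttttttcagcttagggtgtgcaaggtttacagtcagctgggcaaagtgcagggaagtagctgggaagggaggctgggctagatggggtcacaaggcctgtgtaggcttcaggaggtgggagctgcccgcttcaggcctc
ACLY: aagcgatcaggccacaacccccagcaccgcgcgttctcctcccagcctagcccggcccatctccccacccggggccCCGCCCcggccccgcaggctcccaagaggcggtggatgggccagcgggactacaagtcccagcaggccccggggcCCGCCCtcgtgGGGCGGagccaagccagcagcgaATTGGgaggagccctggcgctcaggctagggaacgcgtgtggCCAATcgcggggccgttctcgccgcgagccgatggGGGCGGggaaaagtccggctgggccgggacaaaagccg
ELOVL6: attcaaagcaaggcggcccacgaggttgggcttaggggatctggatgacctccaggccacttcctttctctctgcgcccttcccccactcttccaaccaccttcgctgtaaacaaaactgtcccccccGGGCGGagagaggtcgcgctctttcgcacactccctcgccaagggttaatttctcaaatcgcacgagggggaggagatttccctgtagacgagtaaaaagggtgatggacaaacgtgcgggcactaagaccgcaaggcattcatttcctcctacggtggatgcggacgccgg
All 3 windows lie inside the span that the deposited table gives for the gene. The RefSeq start used is therefore not the outermost start of the gene, and other starts were not searched.

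The CCAAT box, searched on both strands, was found in 5 of the 9 windows (ACLY, ACSS2, SCD, ELOVL1 and ELOVL5), against 34.6% of 35116 RefSeq promoters. The GC box, GGGCGG on either strand, was found in 7 of 9, all except ELOVL5 and FADS2, against 45.0% of promoters. In ELOVL1 a CCAAT match and a GC box match share bases. The E-box CACGTG, the palindromic core that SREBP, USF and MondoA-type factors can bind, was found once, in ELOVL5, and in 7.26% of promoters. The sterol regulatory element in the form TCACNCCAC was found in none of the 9 windows and in 1.13% of promoters, and TGATGNAA, the core of the C/EBP-ATF response element, in none and in 3.62%. The upregulated ACSS2 and the downregulated ACLY both held CCAAT and GC boxes, while ELOVL6 held a GC box alone. The G and C content of the windows ran from 55.3% in ACSS2 to 82.3% in ACACA. A match of letters is not a binding site, and factor binding was not measured here.

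The genes differed widely in level. Levels of different genes were compared as FPKM, in which counts are scaled both to exonic length and to library total. SCD, at 997 ± 37.4 FPKM (SD, n = 4) in ethanol, stood 9.12-fold above ACLY, the next gene, and 296-fold above FADS2, the lowest at 3.37 ± 0.150 FPKM (SD, n = 4). SCD alone took 71.4 to 72.8% of the summed FPKM of the 10 genes in ethanol and 71.2 to 71.7% in O/A. Together the 10 genes held 0.736 to 0.788% of all counted reads of an ethanol library and 0.691 to 0.728% of those of an O/A library. In ethanol the order from the highest level down was SCD, ACLY, FASN, ELOVL5, ELOVL1, ACSS2, ELOVL6, FADS1, ACACA and FADS2, and neighbours in this order did not overlap in any library. In O/A ACSS2 stood above ELOVL1, and FASN and ELOVL5 overlapped, at 59.3 ± 1.72 and 59.3 ± 0.747 FPKM (SD, n = 4).

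**Figure D2:**
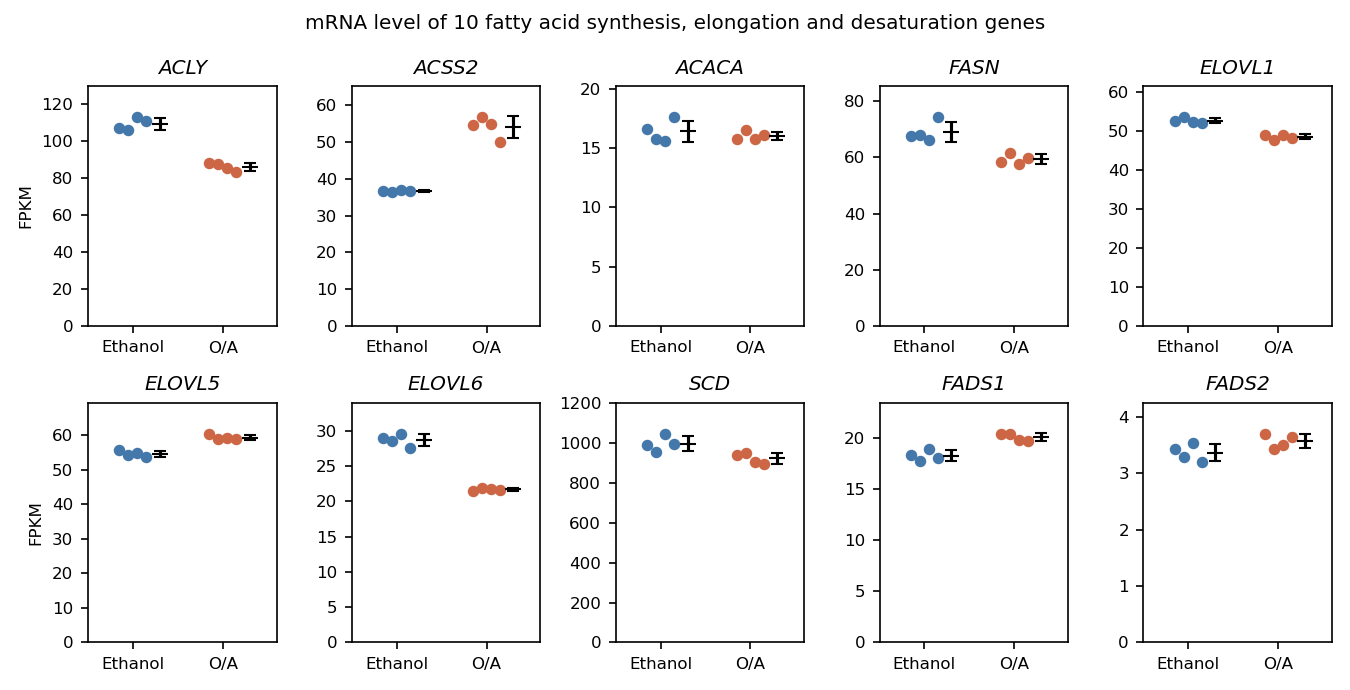
Deposited FPKM of the 10 genes in each library, one panel per gene with its own vertical axis from 0. Blue points are the 4 ethanol and orange points the 4 O/A libraries, and the black bar is the mean with the SD. The O/A libraries of ACSS2 (49.9 to 56.8 FPKM) lie above and those of ACLY (83.5 to 88.3) and ELOVL6 (21.5 to 21.9) below all ethanol libraries of the same gene, whereas the points of ACACA overlap.

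Of the enzymes that supply acetyl-CoA, ACSS2 was higher and ACLY lower in O/A. ACSS2 spans bases 34872146 to 34927962 of chromosome 20 (GRCh38). Per library it had 36.8, 36.4, 37.1 and 36.7 FPKM in ethanol replicates 1 to 4 and 54.7, 56.8, 55.0 and 49.9 FPKM in O/A replicates 1 to 4. The ethanol libraries lay close together, and the lowest O/A library, replicate 4, was still above the highest of them. By edgeR its log2(FC) was 0.61 with a standard error of 0.030 and an adjusted p of 1.23e-22. ACLY lies on chromosome 17 from 41866917 to 41930542. Its level was 107, 106, 113 and 111 FPKM in ethanol and 88.3, 87.5, 85.4 and 83.5 FPKM in O/A. Again the conditions did not overlap, and edgeR gave a log2(FC) of -0.30 with a standard error of 0.026 and an adjusted p of 2.74e-14.

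Because both transcripts come from the same library, their ratio needs no scaling between libraries. The count of ACLY was 2.89 to 3.02 times that of ACSS2 in the ethanol libraries and 1.53 to 1.66 times in the O/A libraries. This is a difference of -0.90 in the log2 ratio (standard error 0.032, exact permutation test, two-sided, p = 0.0286, adjusted p = 0.0429 over 6 pairs). The p-value of 0.0286 is the smallest that 4 libraries against 4 allow. With ACLY lower and ACSS2 higher in every O/A library, the ratio had to separate, so its p-value adds nothing to the results of the single genes. ACLY remained the more abundant transcript in every O/A library.

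Of the enzymes of synthesis proper, ACACA was close to its ethanol level and FASN was lower. ACACA, on chromosome 17 from 37084992 to 37406836, had 16.6, 15.8, 15.6 and 17.6 FPKM in ethanol and 15.8, 16.5, 15.8 and 16.1 FPKM in O/A. All O/A libraries lay within the ethanol range. Its log2(FC) was 0.012 with a 95% confidence interval of -0.051 to 0.076 (adjusted p = 0.767, edgeR), and its sign turned on deposited FPKM values and under quantile normalization. FASN, on chromosome 17 from 82078338 to 82098294, had 67.8, 67.9, 66.3 and 74.3 FPKM in ethanol and 58.2, 61.5, 57.8 and 59.9 FPKM in O/A. Each O/A library was below each ethanol library, and ethanol replicate 4 stood highest. The log2(FC) of FASN was -0.17 (standard error 0.030, adjusted p = 6.68e-06, edgeR), within the fold threshold, and under quantile normalization it was -0.31, past it.

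Set against its own carboxylase, FASN was lower in O/A. The count of FASN was 2.92 to 3.08 times that of ACACA in ethanol and 2.62 to 2.67 times in O/A, a difference in the log2 ratio of -0.19 (standard error 0.017, exact permutation test, p = 0.0286, adjusted p = 0.0429 over 6 pairs). ACACA is the longer transcript, at 13022 exonic bases against 9321, so these count ratios understate the difference in level between the genes.

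Among the elongases, ELOVL6 fell while ELOVL5 did not. ELOVL6, which lengthens palmitate to stearate, lies on chromosome 4 from 110045846 to 110199199. It had 29.0, 28.6, 29.6 and 27.6 FPKM in ethanol and 21.5, 21.9, 21.8 and 21.7 FPKM in O/A. The 4 O/A libraries lay close together and well below the lowest ethanol library, for a log2(FC) of -0.35 (edgeR, adjusted p = 1.82e-15, standard error 0.029). ELOVL5, which lengthens polyunsaturated fatty acids and lies on chromosome 6 from 53267398 to 53349179, had 55.6, 54.2, 54.8 and 53.7 FPKM in ethanol and 60.4, 58.8, 59.2 and 58.8 FPKM in O/A. Here every O/A library was above every ethanol library, for a log2(FC) of 0.17 (edgeR, adjusted p = 8.33e-07, standard error 0.027) that stayed within the threshold. ELOVL1, which makes very long saturated and monounsaturated chains and lies on chromosome 1 from 43363398 to 43368074, had 52.1 to 53.6 FPKM in ethanol and 47.8 to 49.1 FPKM in O/A. Its log2(FC) was -0.071 (standard error 0.030, adjusted p = 0.0437, edgeR), and in 11 of 15 alternative analyses its adjusted p was above 0.05, up to 0.196.

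ELOVL6 and ELOVL5 had nearly equal counts in ethanol, with a ratio of 0.980 to 1.03, and a ratio of 0.679 to 0.712 in O/A. The log2 ratio differed by -0.52 (standard error 0.021, exact permutation test, p = 0.0286, adjusted p = 0.0429 over 6 pairs). With ELOVL6 lower and ELOVL5 higher in every O/A library, this ratio also had to separate. Against ELOVL1 the ratio of ELOVL6 went from 1.54 to 1.64 in ethanol to 1.27 to 1.33 in O/A, a difference of -0.28 (standard error 0.026) with the same p-values.

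**Figure D3:**
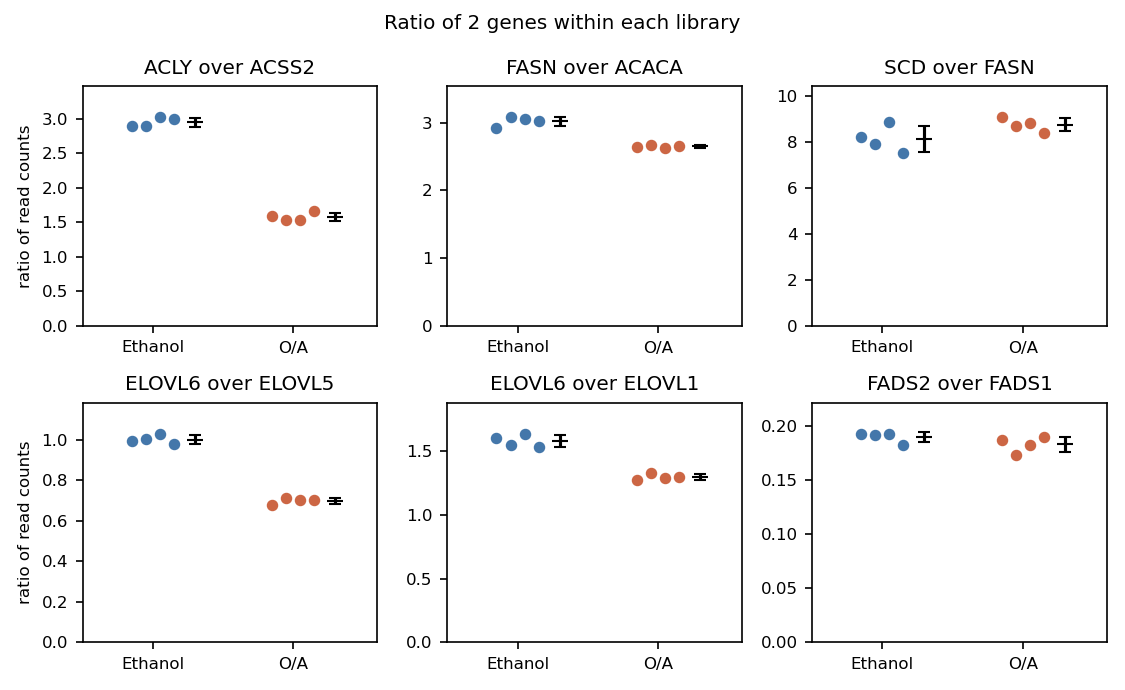
Ratio of the read counts of 2 genes within each library, for the 6 pairs compared, with axes from 0. Blue points are ethanol and orange points O/A libraries, and the black bar is the mean with the SD. The ratio of ACLY to ACSS2 lies between 2.89 and 3.02 in ethanol and between 1.53 and 1.66 in O/A, the ratios of FASN to ACACA and of ELOVL6 to either elongase separate the conditions, and those of SCD to FASN and of FADS2 to FADS1 overlap.

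The desaturases showed small differences. SCD, on chromosome 10 from 100347233 to 100364826, had 989, 956, 1047 and 995 FPKM in ethanol and 939, 951, 907 and 896 FPKM in O/A. In FPKM every O/A library was below every ethanol library, but after TMM scaling the conditions overlapped (exact permutation test, p = 0.0857). The log2(FC) of SCD was -0.065 (standard error 0.025, adjusted p = 0.0282, edgeR). It turned to 0.062 under quantile normalization, and its adjusted p was above 0.05 in 8 of 15 alternatives, up to 0.356. A processed copy, SCDP1 on chromosome 17, held reads amounting to 0.0335% of those of SCD. The count of SCD was 7.54 to 8.89 times that of FASN in ethanol and 8.42 to 9.09 times in O/A. This difference of 0.11 in the log2 ratio (standard error 0.055) did not pass (exact permutation test, p = 0.114, adjusted p = 0.137 over 6 pairs), but without ethanol replicate 3 it was 0.15 with an adjusted p of 0.0343 in the exact permutation test.

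FADS1 (Δ5-desaturase) and FADS2 (Δ6-desaturase) lie on opposite strands of chromosome 11, and the starts of their RefSeq transcripts are 800 bases apart. In the deposited table FADS1 spans 61799627 to 61829318 and FADS2 61792980 to 61867354. FADS1 had 18.3, 17.7, 19.0 and 18.1 FPKM in ethanol and 20.4, 20.4, 19.8 and 19.7 FPKM in O/A. The conditions did not overlap, for a log2(FC) of 0.18 (edgeR, adjusted p = 2.30e-07, standard error 0.028), within the threshold. FADS2 had 3.43, 3.29, 3.54 and 3.20 FPKM in ethanol and 3.70, 3.43, 3.50 and 3.64 FPKM in O/A. In FPKM the conditions overlapped, although after TMM scaling they did not. The log2(FC) of FADS2 was 0.13 (standard error 0.049, adjusted p = 0.0215, edgeR), and its adjusted p was above 0.05 in 6 of 15 alternatives, up to 0.207.

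The ratio of FADS2 to FADS1 counts was 0.183 to 0.193 in ethanol and 0.174 to 0.190 in O/A. The log2 ratio differed by -0.053 (standard error 0.034, exact permutation test, p = 0.171, adjusted p = 0.171 over 6 pairs), so no difference between the neighbours was detected. In GENCODE v44 the exons of both genes share 490 bases, and FADS2 shares 49 exonic bases with FEN1, a nuclease gene with 181% as many reads as FADS2. Whether the counting used strand is not given in the sources used here, so reads from these bases cannot be assigned to one gene, and FADS2, with 611 to 712 counts per library, is affected most. No other member shared exonic bases with a gene that held over 0.381% as many reads as the member.

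Across the 10 genes, all 4 O/A libraries lay above all 4 ethanol libraries for 4 genes (ACSS2, ELOVL5, FADS1 and FADS2) and below them for 4 (ACLY, FASN, ELOVL1 and ELOVL6) after TMM scaling. Among all genes tested these shares were 22.8% and 24.8%, or 47.6% in either direction. The 3 members on chromosome 17, ACLY, ACACA and FASN, had log2(FC) values of -0.30, 0.012 and -0.17. Acetyl-CoA supply, elongation and desaturation each held genes that were higher and genes that were lower. In desaturation the lower gene was SCD alone, whose conditions overlapped after TMM scaling. Its adjusted p was above 0.05 in 8 of 15 alternatives, and its sign turned under quantile normalization.

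The genes around these enzymes were taken from 6 lists with 102 genes, 93 of which were expressed highly enough to be tested. In total 12 were upregulated and 10 downregulated. The counts of each list are given beside 15.8% upregulated and 18.9% downregulated among all genes tested, and no list was tested as a set.

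Of 16 partners in elongation and desaturation, 15 were tested, 3 of them were upregulated, none was downregulated, and their median log2(FC) was 0.125. ELOVL4, which makes the ultra-long chains of epidermal barrier lipids, had 8.83 to 10.5 FPKM in ethanol and 13.8 to 14.7 in O/A (log2(FC) 0.63, standard error 0.051, adjusted p = 2.54e-15, edgeR). ELOVL7 had 7.11 to 8.13 FPKM in ethanol and 10.1 to 11.2 in O/A (log2(FC) 0.50). FADS3, the neighbour of FADS2 in the same gene cluster, had 16.1 ± 0.610 and 20.2 ± 1.05 FPKM (SD, n = 4), with a log2(FC) of 0.37. All 3 were higher in each O/A library than in any ethanol library. The stearoyl-CoA desaturase SCD5 had a log2(FC) of -0.18 and lay within the threshold, with a level that was lower in every O/A library than in any ethanol library. HACD4, a dehydratase of the elongation cycle, had -0.15 (adjusted p = 0.293, edgeR). ELOVL2 and ELOVL3 held only 5 to 19 and 6 to 16 counts per library, and neither was called, although ELOVL2 was called upward without ethanol replicate 1 (adjusted p = 0.0314, edgeR) and ELOVL3 downward on log2(FPKM + 0.1) (log2(FC) -0.54, adjusted p = 0.0178, limma).

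None of the 12 genes that supply citrate, malonyl-CoA and NADPH was called in either direction. SLC16A1, a monocarboxylate transporter (log2(FC) 0.21), and ME1, the cytosolic malic enzyme that yields NADPH (0.20), passed the adjusted p-value alone and were higher in every O/A library. ACACB, the mitochondrial counterpart of ACACA, was expressed at 0.700 ± 0.0356 FPKM (SD, n = 4) in ethanol, with a log2(FC) of -0.18 (adjusted p = 0.0889, edgeR). MLYCD, which degrades malonyl-CoA, and ACSS1, the mitochondrial counterpart of ACSS2, held at most 30 and 16 counts per library. ACSS1 had a log2(FC) of -0.70 (adjusted p = 0.0974, edgeR), and of -1.07 without O/A replicate 2 (adjusted p = 0.0221).

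Of 17 acyl-CoA synthetases, transport proteins and thioesterases, 12 were tested, 1 was upregulated and 1 downregulated. ACSL3, an abundant synthetase of the endoplasmic reticulum and lipid droplets, had 35.1 to 36.8 FPKM in ethanol and 40.5 to 42.2 in O/A. Its log2(FC) of 0.25 (standard error 0.025, adjusted p = 3.44e-12, edgeR) lay just under the threshold and passed it in 6 of 15 alternatives. The upregulated gene was ACSL5 (log2(FC) 0.81, adjusted p = 0.00673, edgeR), with only 12 to 35 counts per library, and without O/A replicate 4 its adjusted p was 0.0507 in edgeR's test. On log2(FPKM + 1) its log2(FC) was 0.16, within the threshold. The downregulated gene was SLC27A3 (log2(FC) -0.29), whose call was lost in 6 of 15 alternatives, among them those without ethanol replicate 2, ethanol replicate 4 and O/A replicate 3 (edgeR, adjusted p = 0.0518, 0.0658 and 0.119). SLC27A4 (log2(FC) -0.19) passed the adjusted p-value alone (0.00110, edgeR) and was lower in every O/A library. SLC27A5 (-0.23) and SLC27A2 (0.23) did not pass it.

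The regulators of lipogenic transcription held 24 tested genes of 25, with 3 upregulated and 4 downregulated. SREBF1, which encodes the SREBP-1 proteins that drive fatty acid synthesis genes, had 8.43 to 9.59 FPKM in ethanol and 8.86 to 9.47 in O/A. Its log2(FC) was 0.048 with a 95% confidence interval of -0.031 to 0.13 (adjusted p = 0.313, edgeR). SREBF2 had 27.4 to 29.0 and 30.7 to 32.7 FPKM, a log2(FC) of 0.20 (edgeR, adjusted p = 1.66e-08, standard error 0.028) within the threshold. INSIG1, an SREBP target that retains the SCAP-SREBP complex in the endoplasmic reticulum, rose from 91.5 ± 2.59 to 155 ± 5.12 FPKM (SD, n = 4), whereas INSIG2 (log2(FC) 0.063) and SCAP (-0.030) were not called.

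Other regulators moved in both directions. NR1H2 (LXR-beta) was upregulated with a log2(FC) of 0.34 and its partner RXRA downregulated with -0.42, while NR1H3 (LXR-alpha) had -0.048. NFYB, a subunit of the CCAAT-binding factor NF-Y, was downregulated with -0.35. MLXIP, which encodes the glucose-sensing factor MondoA, was downregulated with -0.29, a call that was lost without ethanol replicate 4 (-0.23), and MLXIPL (ChREBP) held only 9 to 17 counts per library. MID1IP1, which promotes polymerization of acetyl-CoA carboxylase, had 0.11. The largest differences of the list were those of TRIB3, a pseudokinase induced by stress, which rose from 60.5 ± 1.44 to 195 ± 4.42 FPKM (SD, n = 4), and PPARGC1B, a coactivator of nuclear receptors and SREBP, which fell from 1.25 ± 0.0544 to 0.193 ± 0.0350 FPKM (SD, n = 4).

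Mitochondria hold a separate pathway of fatty acid synthesis whose product serves as the precursor of lipoic acid. All 10 of its listed genes were tested, 1 was upregulated and 4 were downregulated, and the median log2(FC) was -0.17. The downregulated genes were LIPT2 (log2(FC) -1.23, standard error 0.257, adjusted p = 5.10e-05, edgeR), MCAT (-0.70), OXSM (-0.56) and LIAS (-0.40). MCAT, which loads malonyl units, had 4.39 to 6.22 FPKM in ethanol and 2.86 to 3.24 in O/A. OXSM, the condensing enzyme, had 4.67 to 5.30 and 2.91 to 3.89 FPKM. For all 4 the conditions did not overlap, but LIPT2, which like LIAS acts in lipoic acid attachment and synthesis, held only 11 to 44 counts per library. HSD17B8 was the upregulated gene (log2(FC) 0.31), and its call was lost without ethanol replicate 3 (adjusted p = 0.0938, edgeR) and without O/A replicate 1 (adjusted p = 0.0643), and on log2(FPKM + 1), where its log2(FC) was 0.23. NDUFAB1, the acyl carrier protein, had 0.081 and ACSF3, which makes mitochondrial malonyl-CoA, had -0.090, neither called.

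**Figure D4:**
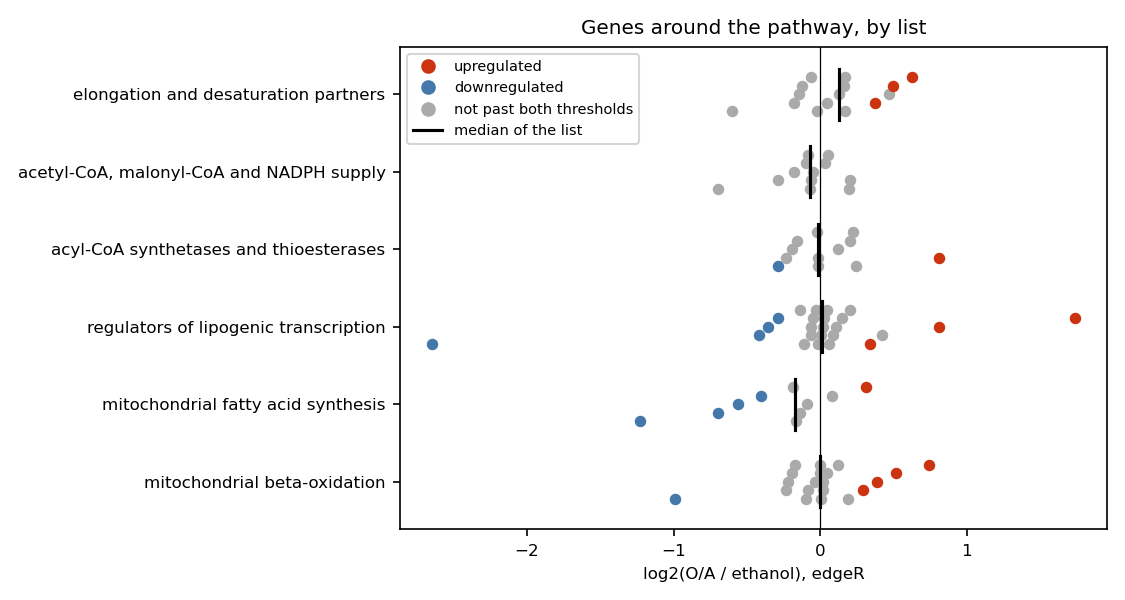
Log2(FC) in O/A against ethanol from edgeR for the 93 tested genes of 6 lists around the pathway, one point per gene, with the median of each list as a black bar. Red points passed both thresholds upward, blue points downward. Of the mitochondrial fatty acid synthesis genes 4 are blue and 1 is red, whereas the supply genes hold no coloured point.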

How the data were processed

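mRNA was selected with oligo(dT), and paired-end reads were aligned by the authors to GRCh38.p13 with HISAT2 2.0.1 and counted on Ensembl genes with HTSeq 0.6.1 (versions as in the submitters' processing notes and the methods). The deposited counts are raw. The strand setting and the Ensembl release are not given in the sources used here. The deposited FPKM values, in which the authors scaled counts to exonic length and library total, were recomputed from the counts within 0.0050. A further deposited table holds the authors' DESeq2 fold changes and p-values and was not used.

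The 14893 of 61806 genes that reached 10 counts in 4 or more libraries were tested with edgeR 4.0.16 in R 4.3.3 (TMM scaling, robust quasi-likelihood test, ethanol against O/A from the sample labels). Standard errors were derived from the quasi-likelihood F statistic. TMM factors were 1.01 to 1.02 in ethanol and 0.982 to 0.988 in O/A, so log2(FC) values from FPKM read a median of 0.045 lower than those of edgeR. Single genes and ratios of 2 genes within a library were compared by two-sided exact permutation tests of 4 against 4. The alternatives were median-ratio scaling, quantile normalization with limma 3.58.1, DESeq2 1.42.0, no filter, limma on log2(FPKM + 0.1) and log2(FPKM + 1), the replicate number as a block and leaving out each library. Of these, edgeR, DESeq2, limma on log2(FPKM + 0.1) and the quantile analysis were also run on simulated counts, and the permutation tests were not.

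The members and the lists were chosen with earlier results of these data known. Named were the 10 members, the 3 highest and 3 lowest tested genes of each list and 8 regulators. One of the genes so named is not reported here. FADS3, NR1H2, MLXIP, LIAS and ACADVL were named after their values were seen. Symbols missing from the table were filled from GENCODE v44 for 20380 of 20417 genes, and the start and end of all 10 members were the same in GENCODE v44 and the table. The labels call the libraries biological replicates, and the methods describe independent experiments. Depth was 17210404 to 20999927 counts per library. Promoter sequences are from RefSeq.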

Additional observations from a re-analysis of the deposited data

Results flagged for a closer look

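A library far from the 3 others of its condition was found in 6 of 126 cases examined, where chance gives about 1 in 20, or 6.3. None of these was the level of one of the 10 enzymes. The ratio of FADS2 to FADS1 counts was 0.183 in ethanol replicate 4 against 0.192 to 0.193 in the other ethanol libraries. As TMM-scaled CPM, HSD17B8 had 4.16 in ethanol replicate 3 against 5.31 to 5.49, and MLYCD had 1.71 in the same library against 1.23 to 1.27. In O/A replicate 3 INSIG2 had 52.9 (others 44.1 to 45.4) and NFYB had 31.1 against 34.5 to 34.8. MLXIP had 92.2 in O/A replicate 1 and 96.3 to 97.1 in the others.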

How the results depend on the processing

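Of the 10 genes, 3 passed both thresholds, and the count was 3 in 14 of the 15 alternatives that kept these thresholds, the 8 analyses without 1 library among them, and 4 with FASN under quantile normalization. ACLY, ACSS2 and ELOVL6 kept their direction and call in all 15 alternatives, between -0.43 and -0.28, 0.52 and 0.64, and -0.42 and -0.34. With the adjusted p-value alone 9 genes passed, and 0 at an absolute log2(FC) above 1. Over all genes the count of 5165 went to 7999 and 797 under the same changes, and to 4945 to 5071 without 1 library. ACACA turned to -0.046 under quantile normalization, -0.030 on log2(FPKM + 0.1), -0.029 on log2(FPKM + 1) and -0.030 in the permutation test on FPKM, and lay between -0.0072 and 0.056 without 1 library. SCD turned to 0.062 under quantile normalization. NR1H3 lay between -0.097 and 0.018 and SCAP between -0.049 and 0.012 without 1 library. The genes called among the acyl-CoA synthetases (2) were 1 under quantile normalization, 0 on log2(FPKM + 1) and 1 to 4 without 1 library (1 without ethanol replicate 4, 4 without ethanol replicate 3). Those of the supply list (0) were 0 to 1 without 1 library (1 without O/A replicate 2), and those of beta-oxidation (4 up, 1 down) were 3 on log2(FPKM + 1) (2 up, 1 down), 6 on log2(FPKM + 0.1) (3 up, 3 down) and 6 without ethanol replicate 4 (4 up, 2 down). The log2 ratio of SCD to FASN differed by 0.072 to 0.15 without 1 library. What caused these shifts was not tested. Whether same-numbered libraries belong together is not given in the labels, and the main tests did not pair them. Correlations of same-numbered libraries were 0.0880, -0.0192, -0.0986 and 0.253. The ethanol library was nearest to its own number in 2 of 4 cases, and such values cannot settle whether the cultures were paired. With the replicate number as a block 3 of the 10 genes and 5160 genes in all passed. In a paired sign-flip test, the differences of -0.90 (ACLY over ACSS2), -0.19 (FASN over ACACA), -0.52 and -0.28 (ELOVL6 over ELOVL5 and ELOVL1) had a p of 0.125, the smallest that 4 pairs allow, so this test could not pass. Depth limits genes with few reads, such as MLXIPL, MLYCD, ACSS1, ELOVL2 and ELOVL3.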

Other observations

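The genes of mitochondrial beta-oxidation, which degrades fatty acids, had a median log2(FC) of 0.0015 over 20 tested of 22. By both thresholds 4 were upregulated and 1 was downregulated (edgeR), against 15.8% and 18.9% of all genes tested. On log2(FPKM + 0.1) with limma the split was 3 and 3, and without ethanol replicate 4 it was 4 and 2. CPT2, the carnitine palmitoyltransferase of the inner membrane, was the downregulated gene, at 2.64 to 2.87 FPKM in ethanol and 1.24 to 1.42 FPKM in O/A (log2(FC) -0.99, standard error 0.064, adjusted p = 8.45e-19, edgeR). ETFDH, which passes electrons from acyl-CoA dehydrogenases to ubiquinone, had 0.760 to 0.900 FPKM in ethanol and 1.32 to 1.40 in O/A (log2(FC) 0.74). ECI1 (0.39) and ACADVL (0.29) were also higher in every O/A library, but the call of ACADVL was lost under quantile normalization (0.22) and on both FPKM scales (0.24). CPT1B (0.52), with 41 to 81 counts per library, overlapped between the conditions, and its call was lost on log2(FPKM + 1). The outer-membrane enzyme CPT1A (-0.22) and the dehydrogenase HADH (-0.23) were lower in every O/A library and lay within the threshold. Both passed it on log2(FPKM + 0.1), at -0.26 and -0.27, and HADH also without ethanol replicate 4, at -0.25.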
